A study of Mus musculus with 6 samples.

Results

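The glutathione transferases examined here were 10 genes, Gsta4, Gstm1, Gstm2, Gstm5, Gsto1, Gsto2, Gstp1, Gstt1, Mgst1 and Mgst3, taken by symbol from the 26231 genes of a table of RPKM, reads scaled to transcript length and library size. All 10 symbols had a row, and 9 passed the filter on low values (at least 1 RPKM in at least 3 of the 6 libraries), as did 11067 genes in all. The remaining gene, Mgst1, was under 1 RPKM in all 6 libraries and was nearly undetected in these fibroblasts.

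RNA came from mouse embryonic fibroblasts (MEFs) of the FVB strain, from embryos of approximately 14 days by the labels, with 3 libraries labelled MEF WT (control) and 3 labelled MEF Nf2 KO, called control and knockout-labelled libraries here. Both lines came from embryos whose Nf2 alleles are flanked by loxP sites, both were immortalized by SV40 large T antigen, and both were transduced with a lentivirus that carries GFP. The knockout line received Cre recombinase under a CMV promoter, and the control line the vector alone, so that the control is Nf2fl/fl in the methods and WT in the labels. RNA was taken after 24 h without serum. There was a single line of each kind, so the effect of Nf2 loss and any other difference between the lines cannot be told apart. The labels number the libraries of each line 1, 2 and 3 and mark them A, B and 2018. Nothing says that they were separate cultures, so p-values measure only the spread between these libraries.

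Depth, worked out from the steps in the values, was 13455421 to 19281135 reads for replicates 1 and 2 and 61195982 and 73045427 reads for replicate 3. Nf2 had 13.1 to 14.3 RPKM in the control libraries and 12.9 to 15.4 RPKM in those labelled MEF Nf2 KO, with overlap, so whole-gene Nf2 RNA did not separate the labels and gives no check of the deleted part. The fibroblast marker list had 9 of 12 genes at 1 RPKM or more in every library, led by Vim (mean of 734 RPKM). Of the other lists, 7 of 7 epithelial and 6 of 8 macrophage markers stayed under 1 RPKM in every library.

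Glutathione transferases join reduced glutathione to electrophilic compounds, which makes them soluble and ready for export, and several also reduce peroxides. The soluble alpha, mu, omega, pi and theta classes share a fold, while the microsomal enzymes are membrane proteins of an unrelated family. Many of the genes are known targets of NRF2, the transcription factor that answers oxidants and electrophiles through the antioxidant response element.

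Several of these genes are close copies of each other, and the sequences below show how far a read can tell them apart. In the mu class, bases 121 to 180 of the Gstm1 coding sequence (GENCODE vM21) are set against the matching bases of the other mu members, with capitals at bases that differ from Gstm1.
Gstm1: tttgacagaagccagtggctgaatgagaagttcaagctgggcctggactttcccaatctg
Gstm2: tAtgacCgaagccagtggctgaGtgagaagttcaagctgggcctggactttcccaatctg
Gstm5: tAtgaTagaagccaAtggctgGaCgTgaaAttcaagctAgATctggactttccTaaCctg
Gstm2 differed from Gstm1 at 3 of these 60 bases and Gstm5 at 12. Over the whole coding sequence Gstm1 was 85.9% identical to Gstm2 and 71.4% identical to Gstm5. In the pi class the same window of Gstp1 is shown with those of Gstp2, its neighbour, and Gstp-ps, a processed pseudogene on chromosome 1.
Gstp1: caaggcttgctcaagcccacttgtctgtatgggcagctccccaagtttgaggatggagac
Gstp2: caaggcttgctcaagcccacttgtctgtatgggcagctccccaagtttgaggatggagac
Gstp-ps: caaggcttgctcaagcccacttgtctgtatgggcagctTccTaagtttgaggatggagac
Here Gstp2 did not differ from Gstp1, and Gstp-ps differed at 2 bases. Over the coding sequence Gstp1 was 98.1% identical to Gstp2 and 97.6% to Gstp-ps. Of the 31-base stretches of all Gstp1 transcripts, 38.5% also occur in Gstp2 and 24.7% in Gstp-ps. For Gstm1 28.8%, for Gstm2 12.2% and for Gstm5 11.1% occur in some other gene, which for Gstm5 is 4933431E20Rik, an antisense gene over its start. The values of these 4 genes therefore depend on how shared reads were split. Gsta4, Gsto1, Gsto2 and Mgst1 shared 0% of such stretches with any other gene, Gstt1 0.468% and Mgst3 1.31%.

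The omega genes lie head to tail on chromosome 19, and they are shown here as neighbours whose sequences can be told apart. Gsto1 (chr19:47854970-47864790, plus strand) ends 743 bases before Gsto2 (chr19:47865534-47886324, plus strand). Their coding sequences were 68.8% identical, and the same 60-base window, with capitals where Gsto2 differs from Gsto1, holds 12 differences.
Gsto1: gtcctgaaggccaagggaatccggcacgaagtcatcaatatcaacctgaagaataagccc
Gsto2: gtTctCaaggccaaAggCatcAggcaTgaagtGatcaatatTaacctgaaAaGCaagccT
The 250 bases before each RefSeq start (GRCm38.p6, plus strand) are at chr19:47854723-47854972 for Gsto1 and at chr19:47865295-47865544 for the first start of Gsto2. Capitals mark GGGCGG, searched on both strands, which occurs in 32.7% of all 32851 RefSeq promoter windows of this length.
Gsto1 promoter: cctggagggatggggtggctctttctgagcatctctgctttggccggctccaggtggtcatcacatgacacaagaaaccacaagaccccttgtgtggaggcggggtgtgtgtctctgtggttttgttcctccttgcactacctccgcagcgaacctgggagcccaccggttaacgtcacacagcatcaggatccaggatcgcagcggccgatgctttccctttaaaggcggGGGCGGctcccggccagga
Gsto2 promoter: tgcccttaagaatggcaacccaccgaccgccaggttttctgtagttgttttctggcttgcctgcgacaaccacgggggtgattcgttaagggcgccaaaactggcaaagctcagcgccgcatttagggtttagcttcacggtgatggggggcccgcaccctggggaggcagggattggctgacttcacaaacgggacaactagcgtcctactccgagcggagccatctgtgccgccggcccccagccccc
The Gsto1 window holds 1 such match and that of the first Gsto2 start 0, while the window of a second Gsto2 start (chr19:47865544-47865793) also holds 1. None of these holds TGACNNNGC, the core of the antioxidant response element, on either strand. That core was found in 10.2% of all windows. Promoter windows matched 9 of the 10 genes, all but Gsta4, and among them only Gstm5 and the first start of Mgst1 held the core. In Gstm5 it ends at the last base of chr3:107895772-107895820 (plus strand), printed here with the core and GGGCGG, on either strand, in capitals.
Gstm5 promoter: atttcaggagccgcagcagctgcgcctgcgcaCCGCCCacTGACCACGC

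The levels of the 10 genes spanned from 127 RPKM for Gstp1 to 0.180 RPKM for Mgst1, as means over the 6 libraries. Gstp1, on chromosome 19 (chr19:4035407-4037985, minus strand), encodes the pi enzyme that predominates in many tissues outside the liver. Its values in replicates 1, 2 and 3 were 132, 121 and 126 RPKM in the control and 137, 105 and 140.4 RPKM in the knockout-labelled libraries. It made up 43.0% to 56.5% of the summed RPKM of the 10 genes in every library, and its mean ranked 311 of the 11067 genes tested. Gsto1, the omega enzyme that reduces dehydroascorbate and removes glutathione from proteins, followed with a mean of 52.6 RPKM. The ranges of Gstp1 and Gsto1 did not overlap each other or those of the genes below. Next came the mu genes, which lie within the same cluster on chromosome 3, with means of 19.9 RPKM for Gstm1, 19.8 for Gstm5 and 18.1 for Gstm2. Their order was not fixed, since Gstm1 was above Gstm5 in only 3 of 6 libraries and all 3 ranges overlapped. Gsta4 (10.6 RPKM), Mgst3 (6.53), Gstt1 (2.23) and Gsto2 (0.850) came below them by mean. The ranges of Gstm2 and Gsta4 overlapped, with Gstm2 above Gsta4 in only 4 of 6 libraries. The ranges of Gsta4, Mgst3 and Gstt1 each overlapped that of the next one down, and Mgst1 lay under the whole range of Gsto2.

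**Figure D1:**
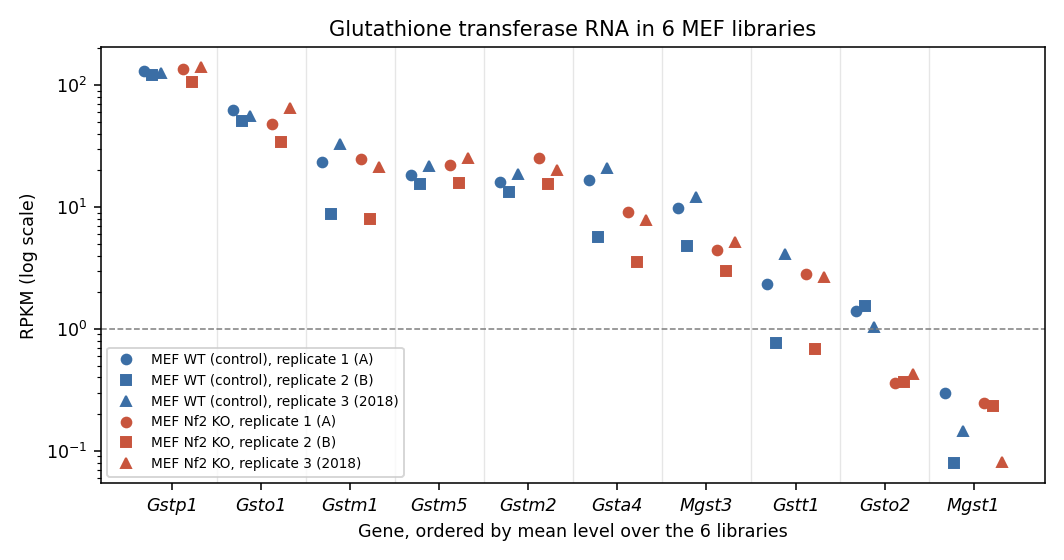
RPKM of the 10 glutathione transferases (log axis) in each of the 6 libraries, blue for those labelled MEF WT (control) and red for those labelled MEF Nf2 KO, with circles, squares and triangles for replicates 1, 2 and 3 and a dashed line at 1 RPKM. Gstp1 and Gsto1 stand above the other genes in every library, and the squares of replicate 2 lie low for Gsta4, Gstm1 and Gstt1 in both lines.

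The spread over the 6 libraries also differed among the genes. The coefficient of variation was 9.99% for Gstp1, between 20.2% and 23.4% for Gsto1, Gstm2 and Gstm5, and between 48.6% and 63.2% for Gstm1, Mgst1, Mgst3, Gstt1, Gsta4 and Gsto2. The abundant pi gene was thus the steadiest member. Few reads stood behind the low genes, 3 to 18 per library for Mgst1, 15 to 148 for Gsto2 and 20 to 387 for Gstt1, against 2747 to 15880 for Gstp1. The 3 reads of Mgst1 in control replicate 2 have an exact 95% Poisson interval of 0.619 to 8.77 reads, which covers counting error only.

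To ask whether the lines differed in these enzymes, the knockout-labelled libraries were compared with the control libraries by limma on log2(RPKM + 1). The fit had first no block and then the replicate number as a block, since replicate 2 deviated alike in both lines. With the block, 3 genes passed an adjusted p of 0.05, all lower in the knockout-labelled libraries: Gsta4, Mgst3 and Gsto2. Over all genes tested 4.54% passed in that direction and 7.53% in either. Of all genes 2.99% passed as higher with the block. At an unadjusted p under 0.05 the blocked fit held 4 of the 9 genes, the fourth being Gstm2, and 23.2% of all genes. Without the block none of the 9 genes was called, against 1.06% of all genes tested (0.578% lower and 0.479% higher), and Gsto2 and Mgst3 had an unadjusted p under 0.05, as did 9.91% of all genes. Gsto2 entered the test only through the control libraries, the group where it is high, so it adds nothing to a count over the members.

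Gsta4 (chr9:78182774-78209349, plus strand), the alpha enzyme specialized for 4-hydroxynonenal and other aldehydes from lipid peroxidation, had 16.8, 5.62 and 20.7 RPKM in control replicates 1, 2 and 3. The knockout-labelled libraries had 9.17, 3.56 and 7.88 RPKM. Within each replicate number the knockout-labelled library was the lower one, at 0.546, 0.634 and 0.380 times the control, but control replicate 2 lay below 2 knockout-labelled libraries and the lines overlapped. The log2 difference was -0.88 with a standard error of 0.50 without the block (adjusted p = 0.716) and of 0.15 with it (adjusted p = 0.0298). Without the block it was -1.40 when control replicate 2 was left out, -0.54 without control replicate 3 and -0.53 without knockout-labelled replicate 2.

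Mgst3 (chr1:167371966-167393841, minus strand), a microsomal enzyme with glutathione peroxidase activity, had 9.82, 4.76 and 12.0 RPKM in the control and 4.43, 2.98 and 5.14 RPKM in the knockout-labelled libraries. It too was lower within all 3 replicate numbers, at 0.452, 0.626 and 0.427 times the control, while control replicate 2 lay between knockout-labelled replicates 1 and 3. The log2 difference was -0.87 (standard error 0.32, adjusted p = 0.408 without the block, and 0.12 and 0.0167 with it). Without replicate 2 of both lines Gsta4 and Mgst3 passed with no block, at -1.05 (adjusted p = 0.00801) and -1.04 (adjusted p = 0.00742). In that fit 2.50% of all genes passed as lower and 4.37% in either direction. Without replicate 1 of both lines the differences were -0.91 and -0.81, and without replicate 3 they were -0.67 and -0.76. Neither gene passed there, and 0 of all genes tested did.

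Gsto2, an omega enzyme with high dehydroascorbate reductase activity, had 1.39, 1.53 and 1.03 RPKM in the control and 0.356, 0.368 and 0.423 RPKM in the knockout-labelled libraries. It was the only gene of the 10 whose lines did not overlap. Since it passed the filter only through the control libraries this was fixed by the filter, and nothing is read from the shares of all genes tested without overlap (15.1%, or 7.52% with the control higher). Its knockout-labelled mean was 29.0% of the control mean. The log2 difference of -0.74 had an adjusted p of 0.0559 without the block and 0.0191 with it. Its neighbour Gsto1 had 62.0, 51.1 and 56.3 RPKM in the control and 47.6, 34.4 and 64.4 RPKM in the knockout-labelled libraries. These overlapped, and the log2 difference of -0.25 had a 95% interval of -0.78 to 0.28. It was -0.02 without knockout-labelled replicate 2 and -0.47 without knockout-labelled replicate 3. Within a library, Gsto2 stood at 1.83% to 3.00% of Gsto1 in the control and at 0.657% to 1.07% in the knockout-labelled libraries. With Gsto1 between 34.4 and 64.4 RPKM in all libraries, this ratio restates the Gsto2 values.

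**Figure D2:**
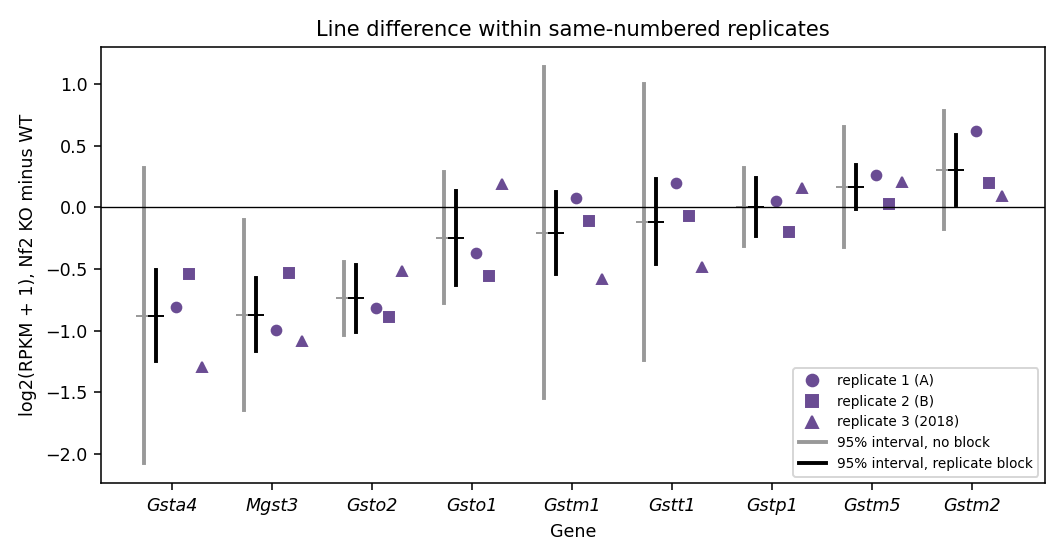
Difference in log2(RPKM + 1) between the knockout-labelled libraries and MEF WT (control) for the 9 genes tested, as purple points within replicates 1, 2 and 3 and as the limma estimate with its 95% interval, grey without and black with the replicate block. All 3 points of Gsta4, Mgst3 and Gsto2 lie below 0, and the black intervals are narrower than the grey ones.

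The mu, pi and theta genes and Gsto1 did not pass in either fit (the intervals given are those without the block), and no test here shows that they were alike. Gstm2 (chr3:107981702-107986453, minus strand), a mu enzyme, had 16.1, 13.3 and 18.7 RPKM in the control and 25.2, 15.3 and 19.99 RPKM in the knockout-labelled libraries. It was higher within all 3 replicate numbers (log2 difference 0.30, 95% interval -0.17 to 0.78). Gstm5 (chr3:107895821-107898686, plus strand), a mu enzyme known from brain and testis, was likewise higher within all 3, with 18.4, 15.3 and 21.8 against 22.3, 15.6 and 25.3 RPKM (log2 difference 0.16, 95% interval -0.32 to 0.65). Leaving out libraries or replicate numbers moved these differences between 0.14 and 0.48 for Gstm2, lowest without knockout-labelled replicate 1, and between 0.02 and 0.35 for Gstm5, lowest without knockout-labelled replicate 3, and both were highest without knockout-labelled replicate 2. Among all genes tested 22.3% were higher, and 24.6% lower, within all 3 numbers, against 2 higher and 2 lower (Gsta4 and Mgst3) among the members other than Gsto2. Gstm1 (chr3:108012255-108017973, minus strand), the mu enzyme best known for conjugating xenobiotics, had 23.6, 8.77 and 32.6 RPKM in the control and 25.0, 8.02 and 21.4 RPKM in the knockout-labelled libraries. Its log2 difference of -0.21 had a 95% interval of -1.55 to 1.14, and the direction was not the same in every replicate number. Gstp1 had a log2 difference of 0.004 (95% interval -0.31 to 0.32). The sum of Gstp1, Gstp2 and Gstp-ps, each on its own length scale and so still dependent on how shared reads were split, was 156 ± 9.36 RPKM in the control and 155 ± 24.8 RPKM in the knockout-labelled libraries (SD, n = 3 each). Gstt1 (chr10:75783813-75798584, minus strand), a theta enzyme that acts on small halogenated alkanes, had 2.33, 0.759 and 4.14 against 2.82, 0.679 and 2.68 RPKM (log2 difference -0.12, 95% interval -1.24 to 1.00). Mgst1 (chr6:138140316-138156755, plus strand), an abundant microsomal enzyme of liver, had 0.295, 0.0786 and 0.146 RPKM against 0.247, 0.232 and 0.0816 RPKM. These overlapped, with p = 0.9 in a two-sided exact permutation test that cannot go below 0.1.

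Together the 10 genes summed to 283, 222 and 294 RPKM in control replicates 1, 2 and 3 and to 274, 187 and 288 RPKM in the knockout-labelled libraries. The sums of the lines overlapped, and the lowest of either line was replicate 2. The neural marker list moved with the line, with a summed level of 4.01 to 6.64 RPKM in the control and 8.85 to 12.5 RPKM in the knockout-labelled libraries, led by Map2, with 1 of its 5 genes at 1 RPKM or more in every library and none of them at 0 throughout. The fibroblast list summed to 1888 to 2599 RPKM in the control and to 1481 to 1926 RPKM in the knockout-labelled libraries, with overlap. The part of either list in the differences above was not tested.

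More of these genes passed between replicate 2, marked B, and replicates 1 and 3. With the line as a term in the fit, 6 of the 9 genes passed as lower in replicate 2: Gstm1, Gsta4, Gstt1, Mgst3, Gstm5 and Gstm2. None passed as higher. Of all genes tested 19.8% passed as lower, 10.8% as higher and 30.6% in either direction. At an unadjusted p under 0.05 the share was 44.2%, and 8 of the 9 genes were among them. With the libraries centred on their medians the same 6 genes passed as lower, against 13.9% of all genes lower and 15.3% higher, and so they did after quantile normalization, against 12.8% lower and 14% higher. Gstt1 entered the test only through replicates 1 and 3, where it is high, so it adds nothing to these counts, which without it are 5 of 8. The labels do not say how B differed from A and 2018.

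Gstm1 had the largest log2 difference of the 9 genes at a pseudocount of 1, while at 0.1 Gstt1 did (-1.89 against -1.58 for Gstm1), and without knockout-labelled replicate 2 Gsta4 did (-1.57). The level of Gstm1 in replicate 2 was 31.2% of the mean of replicates 1 and 3 in the control and 34.6% in the knockout-labelled libraries, a log2 difference of -1.49 (standard error 0.13, adjusted p = 0.00125 from limma). Gsta4 was at 30.0% and 41.8% (log2 difference -1.31, standard error 0.14, adjusted p = 0.00202). With no line term in the fit Gsta4 did not pass (adjusted p = 0.0717). Gstt1 was at 23.5% and 24.7% on the RPKM scale, and its log2 difference of -1.20 (standard error 0.17, adjusted p = 0.00403) understates this because the gene is low. In Gstm1 and Gsta4 both libraries of replicate 2 lay below all 4 others, as they did in Gstt1, where the filter partly fixed it. Each of the 3 genes had an adjusted p under 0.05 when either replicate 2 library was left out, a fit in which the lone replicate 2 library is assumed to vary like the others.

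Mgst3 was at 43.5% in the control and 62.2% in the knockout-labelled libraries (log2 difference -0.79, adjusted p = 0.00803), although control replicate 2 lay above knockout-labelled replicate 1. Gstm5 was at 76.0% and 65.7% (log2 difference -0.47, adjusted p = 0.0146), and Gstm2 at 76.3% and 67.9% (log2 difference -0.44, adjusted p = 0.0255). Gstm5 and Gstm2 also kept replicate 2 below all 4 other libraries. Without control replicate 2, Mgst3, Gstm5 and Gstm2 no longer passed (adjusted p = 0.0835, 0.0652 and 0.107), and without knockout-labelled replicate 2, Gstm5 and Gstm2 did not (adjusted p = 0.177 and 0.228). Gstm2 also missed the threshold against replicate 1 alone (adjusted p = 0.0563), against replicate 3 alone (0.0810) and without control replicate 3 (0.0640). With no line term Mgst3 and Gstm2 did not pass (adjusted p = 0.211 and 0.111). With no filter Mgst3, Gstm5 and Gstm2 did not pass (adjusted p = 0.0651, 0.0839 and 0.122).

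Gsto1, Gstp1 and Gsto2 did not pass. Gsto1 was at 86.4% and 61.3% (log2 difference -0.44, 95% interval -0.80 to -0.08, adjusted p = 0.0684) and Gstp1 at 93.8% and 76.0% (log2 difference -0.24, 95% interval -0.47 to -0.01, adjusted p = 0.0992). Leaving out 1 library moved the difference from -0.67 to -0.21 for Gsto1 and from -0.39 to -0.09 for Gstp1. Without knockout-labelled replicate 3, Gsto1 just passed (adjusted p = 0.04999). Gsto2 was the only tested gene of the family whose estimate was not below 0 (log2 difference 0.09, 95% interval -0.19 to 0.36). With Gstt1 left out for the same reason, both replicate 2 libraries lay below all others in 5 of 8 genes, Gstp1 among them, against 29.8% of all genes tested.

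**Figure D3:**
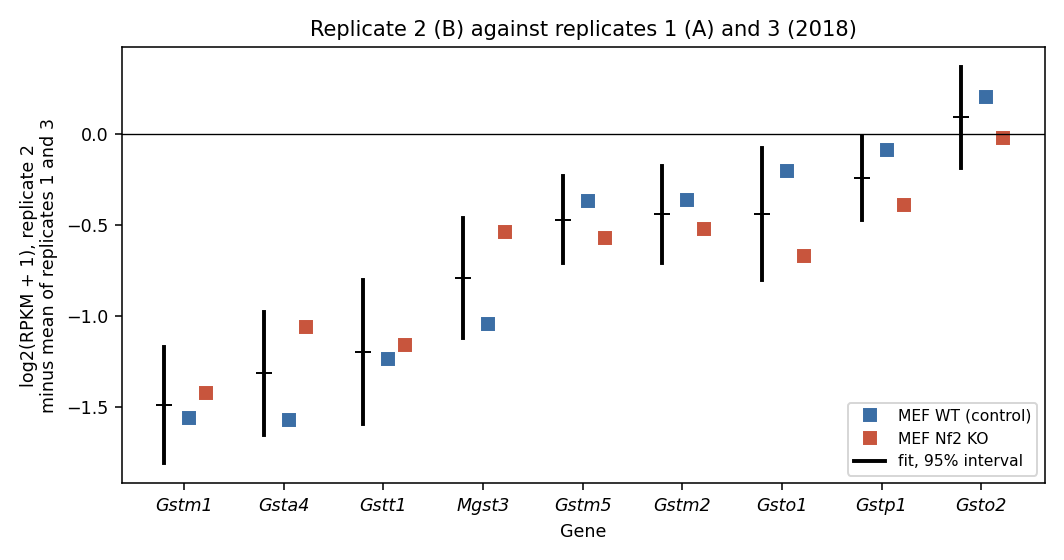
Difference in log2(RPKM + 1) between replicate 2 and the mean of replicates 1 and 3 for the 9 genes tested, as squares within the control (blue) and the knockout-labelled libraries (red) and as the limma estimate with its 95% interval (black). Gstm1, Gsta4 and Gstt1 lie furthest below 0 in both lines, and Gsto2 lies around 0.

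By class, the mu sum in replicate 2 was 56.9% of that in replicates 1 and 3 in the control and 56.0% in the knockout-labelled libraries, the omega sum 87.2% and 61.6%, and Gstp1 93.8% and 76.0%. These shares were not tested against each other. Within the mu class, Gstm1 stood at 147% and 174% of Gstm2 in control replicates 1 and 3 and at 66.2% in replicate 2. In the knockout-labelled libraries it was at 99.1% and 107% in replicates 1 and 3 and at 52.3% in replicate 2. Gstm2 and Gstm5 kept closer to each other, with Gstm2 at 79.1% to 113% of Gstm5 in all 6 libraries. Gstm1 and Gstm2 share sequence with other genes, as shown above, and the part of read assignment in these ratios was not tested.

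**Figure D4:**
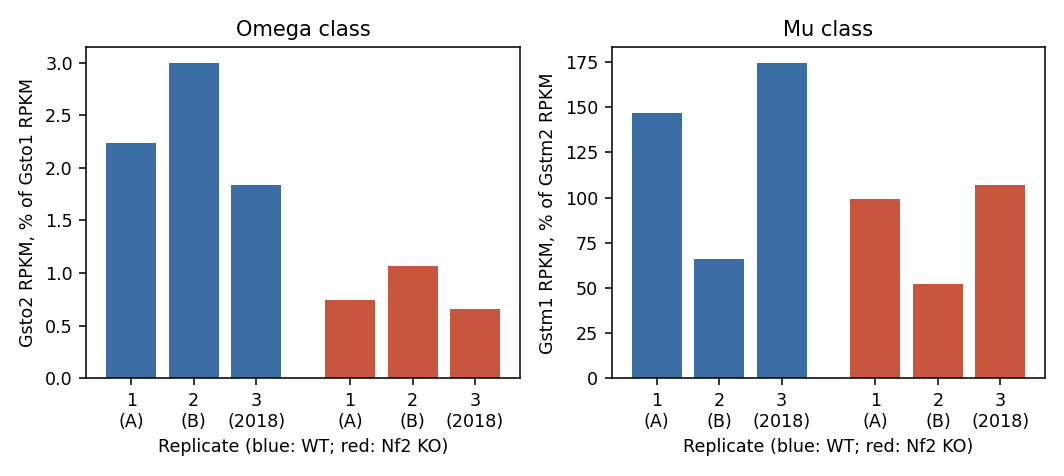
RPKM of Gsto2 as a percentage of Gsto1 (left) and of Gstm1 as a percentage of Gstm2 (right) in each library, blue for MEF WT (control) and red for MEF Nf2 KO, by replicate. The omega ratio is at most 1.07% in the red bars and at least 1.83% in the blue ones, a gap set by Gsto2, which passed the filter only through the control libraries, while the mu ratio is lowest in replicate 2 of each line.

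Whether the line difference itself differed between replicate 2 and the others was tested as an interaction, which left 2 residual degrees of freedom. None of the 9 genes passed, nor did any of the 11067 genes (0%, with 313, or 2.83%, at an unadjusted p under 0.05). The estimates nearest to a difference were those of Gsta4, 0.51 (95% interval -0.02 to 1.05), and Mgst3, 0.51 (95% interval -0.02 to 1.03), whose line differences were smallest in replicate 2.

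Marker lists of other cells moved with replicate 2. Endothelial markers, led by Kdr, summed to 3.89 and 4.45 RPKM in its libraries and to 1.46 to 1.84 RPKM in the other 4, with 4 of 5 under 1 RPKM in every library and none at 0 throughout. Skeletal muscle markers, led by Acta1, summed to 3.07 and 6.61 RPKM against 0.781 to 1.24 RPKM, with 3 of the 4 genes in the table under 1 RPKM everywhere. Lower sums in replicate 2 were those of the erythroid (0.728 and 0.746 RPKM against 1.11 to 1.57 RPKM) and epithelial markers (0.328 and 0.369 against 0.496 to 1.43 RPKM). The hepatocyte list, with 2 of its 5 genes in the table, had 0.0470 and 0.0616 against 0.0617 to 0.167 RPKM, nearly a tie at a very low level. No marker of these lists in the table was at 0 throughout. The fibroblast list summed to 1481 and 1888 RPKM in replicate 2 and to 1713 to 2599 RPKM in the others. Their part in the replicate 2 difference was not tested, and in bulk RNA fewer cells of a kind and less RNA per cell cannot be told apart.

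The pathway around these enzymes was described by lists written from general knowledge. Of the 17 other glutathione transferases, 15 were in the table and 2 passed the filter, Gstt3 (theta) and Gstz1 (zeta, which isomerizes maleylacetoacetate in tyrosine breakdown). Gstt3 had 3.56 ± 1.29 RPKM in the control and 2.74 ± 0.489 RPKM in the knockout-labelled libraries, and Gstz1 4.22 ± 1.17 and 4.24 ± 0.703 RPKM (SD, n = 3 each). Neither passed between the lines, and both passed as lower in replicate 2 (log2 differences of -0.52 and -0.45, adjusted p = 0.0200 and 0.0169 from limma).

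Between the lines, 0 genes of any of the 7 lists passed without the block, against 1.06% of all genes tested. With the block 6 passed, against 7.53% of all genes tested. Of 8 tested genes for export and processing of conjugates, Abcc1, the pump for glutathione conjugates, was lower in the knockout-labelled libraries (8.91 ± 1.86 against 11.5 ± 2.85 RPKM, log2 difference -0.33, adjusted p = 0.0455). Abcg2, a pump of broad specificity, was higher (5.83 ± 0.270 against 3.79 ± 0.561 RPKM, log2 difference 0.52, adjusted p = 0.0198). Of 9 genes that remove lipid aldehydes, Aldh1a1, an aldehyde dehydrogenase, was higher, at 29.0 ± 11.8 against 8.83 ± 1.92 RPKM (log2 difference 1.55, adjusted p = 0.0357). The lines did not overlap in Abcg2 and Aldh1a1, nor did they in 15.1% of all genes tested. Of 20 genes of NRF2 regulation and targets, Nqo1, a quinone reductase and NRF2 target, was lower (7.55 ± 1.77 against 9.80 ± 1.46 RPKM, adjusted p = 0.0464) and Mafk, a small MAF partner of NRF2, higher (14.2 ± 7.34 against 10.1 ± 5.31 RPKM, adjusted p = 0.0187). Of 8 genes around omega class functions, Slc23a2, an ascorbate transporter, was lower (7.13 ± 0.945 against 9.14 ± 1.64 RPKM, adjusted p = 0.0476). None of 9 genes of glutathione synthesis, reduction and breakdown and none of 8 relatives by fold passed with the block, with 2 and 4 at an unadjusted p under 0.05, as were 23.2% of all genes. The 4 include Ltc4s, which reached 1 RPKM only in the control libraries. The errors are SD with n = 3 each. Libraries and replicate numbers were left out only in the fit without the block, so the values that follow do not test the blocked calls. In that fit the log2 difference of Mafk ran from 0.08 without knockout-labelled replicate 2 to 0.81 without control replicate 2. Within replicates 1, 2 and 3 it was 0.36, 0.45 and 0.53. That of Abcc1 was -0.15 without control replicate 2 and -0.21 without knockout-labelled replicate 1, that of Nqo1 -0.17 without knockout-labelled replicate 2, and that of Slc23a2 -0.19 without control replicate 1. The differences of Abcg2 and Aldh1a1 stayed between 0.43 and 0.60 and between 1.17 and 1.94.

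In replicate 2, 11 of the 20 NRF2 genes passed as lower and 4 as higher, with a median log2 difference of -0.35 against -0.08 over all genes tested. Of all genes 19.8% passed as lower and 10.8% as higher in the same fit. Keap1, which marks NRF2 for destruction, was among the lower ones, as were Nfe2l2, which encodes NRF2, and Nqo1 (log2 differences of -0.35, -0.35 and -0.44, adjusted p = 0.0189, 0.0333 and 0.00995), while Mafk was higher (1.10, adjusted p = 0.00131). Keap1 and Nfe2l2 were chosen for their roles after their values were seen. Of the synthesis list 2 passed as lower and 1 as higher of 9 tested, of the export list 1 and 2 of 8, of the aldehyde list 3 and 1 of 9, of the relatives by fold 0 and 1 of 8, and of the omega functions list 0 and 0 of 8 (1 at an unadjusted p under 0.05), where 30.6% of all genes passed in either direction.

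Across the 6 libraries, Gstm1 and Gstt1 had the most similar pattern among the 9 genes (Pearson r = 0.99 on log2 values), followed by Gsta4 and Mgst3 (0.96), while Gsto2 and Gstm2 ran opposite (-0.64). These 6 points share their lines and replicate numbers, and the values are a description. Among all genes tested the patterns most like Gsto2 were those of Abr, Nedd4l and Havcr2 (r of 0.9877 to 0.9898), those most like Gstm1 were Atf7ip, Enpp5 and Serhl (0.9973 to 0.9977), and those most like Gstp1 were Kif3c, Ppp2r3c and Psmc2 (0.991 to 0.996).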

How the data were processed

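RNA from 6 MEF libraries, 3 labelled MEF WT (control) and 3 labelled MEF Nf2 KO, was sequenced and analysed at GENEWIZ. The deposited table has a single value for each gene in each library, read here as RPKM. The build is mm10 per the submitters' processing notes, and the aligner, counter and unit are not given in the sources used here. With exon lengths from GENCODE vM21 (25986 of 26231 genes), between 83.6% and 85.5% of values worth at most 20 reads were within 0.05 of a whole multiple of a single step per library, where values without steps would give 10%. That step gave the depth. The unit and the depth are therefore inferences, and the sources do not say if single reads or pairs were counted, or by strand.

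The 11067 genes that reached 1 RPKM in 3 or more libraries were tested two-sided by limma 3.58.1 in R 4.3.3 on log2(RPKM + 1) (trend and robust), and p-values were adjusted over them by Benjamini and Hochberg, with a threshold of 0.05. This scale understates changes of low genes. The line was tested with no covariate, as the methods name an unpaired test, replicate 2 with the line as a term, and their interaction with both. After subtraction of the line means, libraries with the same number correlated across genes (0.552, 0.819 and 0.516), and the blocked fit is given beside the other. Within a line these deviations cancel out, so a replicate 2 shift shared by the lines raises the values of replicates 1 and 3 too. The correlations therefore do not show that the libraries of replicates 1 and 3 are pairs. Sequences were aligned with biopython 1.88, and figures drawn with matplotlib 3.10.9. The fits were tested on simulated data.

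Named were Nf2, the 10 members, list genes past the threshold in either line fit (every tested gene of lists with under 6) and the 3 genes most correlated with Gsto2, Gstm1 and Gstp1. The members and lists were chosen with earlier results of these data known. Alternatives were other normalizations, filters, pseudocounts and limma settings, covariates, and leaving out libraries or replicate numbers. Between the lines, libraries and replicate numbers were left out only in the fit without the block. Leaving out libraries in the interaction was added after seeing the data.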

Additional observations from a re-analysis of the deposited data

How the results depend on the processing

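Among the 9 tested members, the 3 calls between the lines came with the replicate block, which removes replicate differences from the error and raised the number of genes past the threshold from 117 to 833. Gsto2 also passed without the block at a pseudocount of 0.1 (adjusted p = 0.0485) and without trend and robust settings (0.0382). Since it entered the test only through the control libraries, where it is high, nothing is read from its calls. Over the alternatives the adjusted p ran from 0.0191 to 0.673 for Gsto2, from 0.00801 to 0.99983 for Gsta4 and from 0.00742 to 0.99983 for Mgst3, the highest without replicate 1 (Gsto2) or 3 (Gsta4 and Mgst3) of both lines. The block changed no other member's call. The 117 genes became 9 with no filter, 63 with a filter of 5 RPKM, 62 with the 2018 mark as a covariate, and 0 to 484 when libraries or replicate numbers were left out (0 without replicate 1 of both lines and 0 without replicate 3, where limma gave 578 and 556 with an unadjusted p under 0.05). The number stayed within 1.5 times under the other normalizations, the other pseudocount and the plain limma settings.

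For replicate 2, 3386 genes passed, 884 with no filter, 1976 with no line term and 699 to 3375 with a library left out, the fewest without knockout-labelled replicate 2 and 832 without control replicate 2. Members called were 6 under both normalizations, 3 with no filter (Gsta4, Gstm1 and Gstt1), 3 with no line term (Gstm1, Gstm5 and Gstt1), 5 against replicate 1 or replicate 3 alone (all but Gstm2) and 3 to 7 with a library left out. In the interaction 0 genes passed, 0 to 16 with a library left out, and without a library of replicate 2 it could not be estimated.

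Signs turned only when libraries were left out, in genes with small differences. Between the lines the log2 difference then ran from -0.0714 to 0.134 for Gstp1, from -0.725 to 0.268 for Gstm1, from -0.529 to 0.269 for Gstt1 and from -0.0301 to 0.0911 for Nf2. In replicate 2 that of Gsto2 ran from -0.0228 to 0.1995. In the interaction it ran from -0.0879 to 0.362 for Gstm1, from -0.319 to 0.0019 for Gstm2 and from -0.237 to 0.387 for Gstt1. Few reads limit Mgst1, Gsto2 and Gstt1.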

Other observations

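Of the glutathione transferases outside the 10 genes, Gstp-ps was listed well above the filter, at 34.3, 27.1 and 27.9 RPKM in control replicates 1, 2 and 3 and at 26.8, 21.9 and 33.8 RPKM in the knockout-labelled libraries. That is 19.6% to 26.0% of the Gstp1 value of the same library, for a pseudogene with 68.1% of its 31-base stretches found in Gstp1 and 78.9% in Gstp2. Gstp2 itself stood at 0.0745 to 0.421 RPKM. Gstm7, a mu gene between Gstm5 and Gstm2, was under the filter, with 0.603, 0.0329 and 0.877 RPKM in the control and 1.76, 0.227 and 1.64 RPKM in the knockout-labelled libraries. It was higher in the latter within all 3 replicate numbers, as were 22.3% of the genes past the filter, and lowest in replicate 2 of either line. Its replicate 2 values rest on 1 read in the control and 7 in the knockout-labelled library. Both genes were chosen after their values were seen.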
